A study of Mus musculus with 11 samples.

Results

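The transcriptome of TXNDC5 knockout (KO) AML12 cells was compared with that of TXNDC5 knock-in (KI) AML12 cells, the pair of edited lines at the low and the high end of *Txndc5* expression in the series. The comparison holds 8 of the 11 RNAseq libraries, KO 5 to 8 and KI 5 to 8, and it is described across the 13269 genes, of 24849 in the deposited table, that had enough counts to be tested. The other 3 libraries, of the unedited AML12 cells (WT), did not enter the test and are given only as levels beside it. AML12 is a mouse hepatocyte line, and both edited lines were derived from it, so KO and KI share the parental background. In the KO cells, whose genotype the labels name a knockdown, a CRISPR/Cas9 cut in the fifth exon of *Txndc5* was joined to a puromycin resistance cassette. In the KI cells, which the labels name TXNDC5 Knockin and describe as overexpressing TXNDC5, a construct was placed in the safe-harbour ROSA26. The promoter of the construct and the number of clones behind each line are not given in the sources used here. No library is described as KI cells with puromycin selection or as KO cells with the construct put back. The TXNDC5 level, the 2 edits, the selection and the clones therefore cannot be told apart. Nothing in the labels says that libraries of a group came from separate cultures, and the p-values then measure the spread between these libraries, which may be technical.

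TXNDC5 is a protein disulfide isomerase of the endoplasmic reticulum (ER). Enzymes of this family form, break and rearrange disulfide bonds in proteins that fold in the ER lumen, and most carry thioredoxin-like domains with a pair of reactive cysteines. Hepatocytes send large amounts of disulfide-bonded plasma protein through this compartment, and when unfolded protein accumulates there, the sensors IRE1, PERK and ATF6 raise chaperones, degradation factors and amino acid metabolism, the unfolded protein response.

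Total counts ran from 30380360 to 38422243 per KO library and from 32360709 to 35335070 per KI library. Levels are given in CPM, counts relative to the library size, after scaling by edgeR's TMM factors, which ran from 0.951 to 1.05. A floor of 3 counts per library, between 0.0742 and 0.0975 CPM, was taken as the limit of detection and covers counting error only. The first principal component held 83.1% of the variance and separated the 4 KO from the 4 KI libraries, and the second held 3.23%. In each group the libraries differed by more than sampling noise, so none was counted as a copy of another. The unannotated entry with the most counts took between 4.32% and 6.44% of the KO counts and between 4.82% and 9.12% of the KI counts. AML12 cells carried hepatocyte transcripts and few of other liver cells. Of 15 hepatocyte identity markers 12 were tested. Summed over all 15, their levels were 6828 to 7966 CPM in the KO libraries and 3167 to 4055 CPM in the KI libraries. Much of the KO sum and little of the KI sum was *Alb*, whose levels are given below. Among the 3 markers that were not tested, *Cyp2e1* had 0 counts in all 8 libraries and *Apoa2* had 1 count in KO 6 alone. *Asgr1* had 2 and 16 counts in KI 5 and KI 6 and 0 in the others. Markers of macrophages and leukocytes summed to 2.39 to 3.07 CPM in the KO libraries and 5.13 to 8.68 CPM in the KI libraries, those of stellate cells and fibroblasts to 0.269 to 1.12 CPM in the KO libraries and 0.592 to 1.17 CPM in the KI libraries, and those of endothelium to 0.128 to 0.346 CPM in the KO libraries and 0 to 0.390 CPM in the KI libraries. *Adgre1*, *Marco*, *Clec4f* and *Cd5l*, which define liver macrophages, and *Lrat* and *Col3a1*, of stellate cells, had 0 counts in all 8 libraries. *Des* and *Dcn*, also on the stellate cell and fibroblast list, had at most 21 and 15 counts in any of the 8. Of the 12 macrophage and leukocyte markers 4 had enough counts to be tested, and of the 12 stellate cell and fibroblast markers 1.

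*Txndc5* was at 364, 287, 430 and 408 counts in the KO libraries and at 5654, 6511, 6723 and 5344 in the KI libraries, against 3299, 3429 and 4046 in the WT libraries. Scaled, its level was 11 ± 2.04 CPM in the KO and 181 ± 11.3 CPM in the KI cells (SD, n = 4 each). The groups did not overlap, and the log2 fold change, given here and below as KO minus KI (a gene that rose by 1 doubled in the KO cells), was -4.03 with an SE of 0.13 and, by quasi-likelihood in edgeR, a Benjamini-Hochberg adjusted p = 5.20e-12. On a scale shared by all 11 libraries the means were 10.2 CPM in the KO, 144 in the WT and 169 in the KI cells, so that most of the span between the edited lines lay between KO and WT. The WT level rests on this scale, and no other was tried for it. The counts are per gene, and neither the exon they fall on nor whether the remaining KO reads come from a whole transcript can be read from them. The targeted exon is shown because it holds one of the active sites: exon 5 of 10 of a GENCODE transcript of the gene lies at chr13:38510127-38510242 of GRCm38 on the minus strand, in coding sequence, and its 116 bases include the codons of residues 203 to 206 of 417, the CGHC site of a thioredoxin-like domain, given in capitals.

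Txndc5 exon 5: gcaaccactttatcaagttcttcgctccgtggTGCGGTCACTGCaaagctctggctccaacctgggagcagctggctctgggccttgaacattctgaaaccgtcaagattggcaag

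Of the 13269 genes, 7171 (54.0%) had an adjusted p-value under 0.05, the threshold for a call. Of these, 3582 (27.0%) were higher and 3589 (27.0%) lower in the KO cells, while the median over all tested genes was 0.00075 on the log2 scale (0.063 when scaled by library totals). An absolute log2 fold change over 1 together with the call was reached by 2280 genes (17.2%), 1021 higher (7.69%) and 1259 lower (9.49%). Over 3 it was reached by 572 (4.31%), 208 higher (1.57%) and 364 lower (2.74%). The KO and KI libraries did not overlap for 6474 genes (48.8%). With calls on more than every second gene, a call on a single gene says little by itself. The size of the change is therefore given beside it. Counts called in a list below stand against these shares, 27.0% of all tested genes higher and 27.0% lower. In the plot of all genes the cloud is spread evenly about the diagonal at high levels and opens at low levels into 2 wings of genes nearly off in one line.

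**Figure D1:**
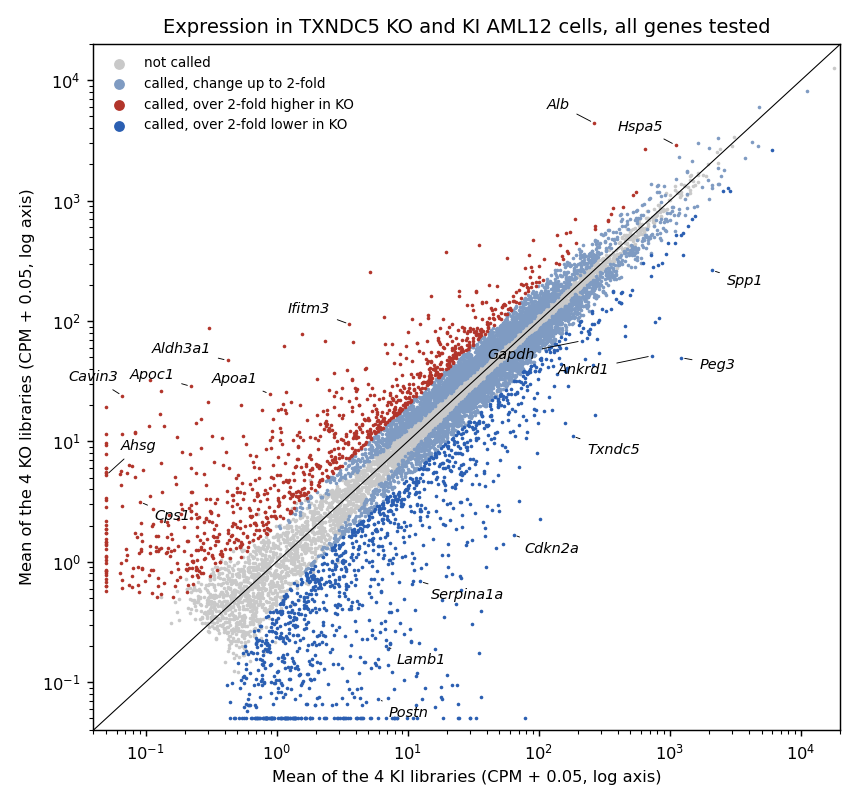
Mean level of each of the 13269 tested genes in the 4 KI libraries (x axis) and the 4 KO libraries (y axis), both in CPM plus 0.05 on log axes, with the diagonal of equal level. Red points are genes called over 2-fold higher and dark blue points genes called over 2-fold lower in the KO cells. *Txndc5* and *Peg3* lie far below the diagonal, and *Alb*, *Aldh3a1* and *Cavin3* far above it.

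The largest differences were between off and on. Among called annotated genes, 104 had 0 counts in all 4 KO libraries and 32 had 0 counts in all 4 KI libraries, and of these 18 and 9 had a mean of at least 5 CPM in the other line. *St8sia4*, a polysialyltransferase, had 0 counts in every KO library and 2619, 2064, 2662 and 3046 counts in the KI libraries, at least 809-fold lower there when the floor stands in for 0. *Kcnj16*, a potassium channel, had 0 counts in the KO and 1207, 1112, 1066 and 1025 in the KI libraries, at least 341-fold lower. The same held for *Tbc1d9*, *Trpa1*, *Stra6*, *Dbn1* and *Pdgfd*, which had 0 KO counts, with lower bounds of the fold of 310.5, 309, 254, 249 and 193. *Stra6* encodes the cellular receptor for retinol-binding protein, *Trpa1* a cation channel, *Dbn1* the actin-binding drebrin and *Pdgfd* a platelet-derived growth factor. All 7 had counts in every WT library, so they were silent in the KO line alone.

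Fewer than 20 KO counts in total remained for the other 8 of the 15 largest falls. *Flt1*, a receptor of vascular endothelial growth factor, had 0, 2, 0 and 0 counts in the KO and 846, 700, 1016 and 661 in the KI libraries. *Khdrbs3*, an RNA-binding protein, had 0, 0, 0 and 4 against 1252, 1147, 1378 and 1031, and *Evl*, an actin regulator of the Ena/VASP family, 6, 0, 0 and 0 against 897, 786, 794 and 696. *Gnao1*, *Mctp1* and *Podxl* had means of 0.0124, 0.0446 and 0.0247 CPM in the KO and 16, 21.8 and 18.0 CPM in the KI cells. The fatty acid hydroxylases *Cyp4a12a* and *Cyp4a12b* had 0.123 and 0.0410 CPM in the KO and 34.7 and 17.8 CPM in the KI cells. Their sequences are nearly alike, so the counting could split reads between them, but both were low in the same 4 libraries.

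In the other direction, *Arsj*, an arylsulfatase, had 723, 617, 582 and 700 counts in the KO but 0 in the KI libraries, at least 198-fold higher. *Chdh*, the choline dehydrogenase of mitochondria, *S100g*, a calcium-binding protein, and *Arhgef16*, a guanine nucleotide exchange factor, also had 0 KI counts, with lower bounds of the fold of 117, 99.2 and 95.0. *Cavin3*, a coat protein of caveolae, had 854, 717, 776 and 905 counts in the KO and 0, 0, 0 and 2 in the KI libraries, and 0 in the 3 WT libraries. *Arhgef16* likewise had 0 WT counts, so both were on in the KO line alone. *Fhl1*, a LIM-domain protein of muscle, had a mean of 87.3 CPM in the KO and 0.255 in the KI cells. *Thbd*, the thrombin receptor thrombomodulin, had 26.1 against 0.0819, and *Emp2*, a tetraspan membrane protein, 32.4 against 0.0588. *Zbtb7c*, *Atp9a*, *Crtap*, *Rnf144b* and *Pir* had means between 11.5 and 16.7 CPM in the KO and at most 0.0784 CPM in the KI cells. *Crtap* takes part in the prolyl hydroxylation of collagen, and *Atp9a* is a phospholipid flippase. These 5 differed in WT: *Crtap* had 118, 96 and 135 and *Atp9a* 156, 117 and 192 counts there, whereas *Zbtb7c* had 0, 0 and 11 and *Pir* 0, 0 and 22.

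With *Txndc5* low, most of the other protein disulfide isomerases were higher. Of 22 tested members of this family and its oxidases and helpers, 14 were called higher and 5 lower in the KO cells, with a median log2 fold change of 0.44. *Prdx4*, the peroxiredoxin of the ER, was at 99.0, 88.1, 87.7 and 74.8 CPM in the KO and 17.1, 17.9, 14.7 and 20.7 CPM in the KI libraries, a log2 fold change of 2.31 (SE 0.12). *Ero1b* and *Txndc11* followed with 1.33 and 1.29. *Pdia4* and *Pdia3*, the abundant isomerases ERp72 and ERp57, had log2 fold changes of 1.07 and 0.94, and *P4hb*, the founding isomerase, 0.19, a call at the threshold (adjusted p = 0.0492 from edgeR) that was lost when any library but KI 8 was left out. *Dnajc10*, which reduces disulfides of proteins bound for degradation, rose by 1.10. Besides *Txndc5*, the members that were lower were *Tmx1* (-1.16) and *Tmx3* (-0.58), both membrane-bound isomerases, *Ero1a* (-0.36), the main oxidase of the family, and *Txndc12* (-0.29). The number called lower was 3 without KO 6 and 3 without KI 5, where *Ero1a* and *Txndc12* lost the call, and *Txndc12* was also not called without KO 7, KO 8 or KI 6 (-0.27, -0.26 and -0.27) or with library totals (-0.23).

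Of 31 tested genes of the unfolded protein response, 21 were called higher and 3 lower, with a median of 0.59. Those that rose were mostly chaperones and degradation factors, and of the 3 sensors only the gene of IRE1 was called. *Hspa5*, the chaperone BiP that holds the sensors inactive, was at 3266, 2886, 2845 and 2571 CPM in the KO libraries and at 1133, 1065, 969.5 and 1247 CPM in the KI libraries. The groups did not overlap, and the log2 fold change was 1.39 (SE 0.11, edgeR adjusted p = 4.50e-08). *Sdf2l1*, a partner of BiP, was at 162, 142, 138 and 136 CPM against 32.2, 42.2, 36.4 and 48.5 CPM, and *Herpud1*, a factor of ER-associated degradation, had a log2 fold change of 1.54. *Trib3*, a pseudokinase induced through PERK, showed the largest difference of the list, 66.8, 65.1, 59.8 and 64.9 CPM in the KO and 5.43, 9.26, 8.49 and 6.89 CPM in the KI libraries, or 3.08 on the log2 scale. *Ddit3*, the factor CHOP, rose by 1.29, *Atf4* by 0.44 and *Ern1*, which encodes IRE1, by 0.50. *Ern1* was not called without KO 6, KO 8, KI 5, KI 6 or KI 8 (0.39 to 0.48). The remaining factors and sensors were not called: *Xbp1* was at 223 ± 25.1 CPM in the KO and 234 ± 11.3 in the KI cells, and *Atf6* and *Eif2ak3*, which encodes PERK, had log2 fold changes of -0.10 and 0.26. *Eif2ak3* was called without KO 5 (0.32), without KI 5 (0.32) and with library totals (0.32). The members called lower were *Cryab* (-1.45), a small heat shock protein, *Fkbp14* (-0.41) and *Derl2* (-0.25). Without KO 6, and likewise without KO 8, that number was 1 in place of 3. *Fkbp14* was also not called without KI 5 or KI 8 (-0.35 and -0.33), nor *Derl2* without KO 7, KI 6 or KI 8 (-0.27, -0.26 and -0.20), with library totals (-0.19) or with the replicate block (-0.25). The counts give no measure of *Xbp1* splicing or of protein.

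The ER stress response element, CCAAT and CCACG with 9 bases of any kind between them, is the sequence through which ATF6 and XBP1 act on chaperone genes. It was searched on both strands of the RefSeq promoters of GRCm38.p6, each a window of 300 bases about the annotated start of a gene. It was found for 7 of the 25 genes of this list that have such a promoter. Of all tested genes with a promoter 0.163% held it, and of all 32851 promoters 0.119%. The list holds chaperone genes of this kind by choice, so that contrast is no evidence about these cells. Of these 7, 6 were called higher in the KO cells (*Hspa5*, *Hsp90b1*, *Calr*, *Dnajc3*, *Creld2* and *Syvn1*), and *Canx* was not called, except without KI 8 (-0.23). In the whole list 21 of 31 tested members (67.7%) were called higher. The promoters of *Hspa5* (chr2:34771840-34772139, plus strand) and *Creld2* (chr15:88819396-88819695, plus strand) are given because these genes rose and hold the element, in capitals. In *Creld2* it lies on the opposite strand. A match of letters is a description and shows no binding.

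Hspa5: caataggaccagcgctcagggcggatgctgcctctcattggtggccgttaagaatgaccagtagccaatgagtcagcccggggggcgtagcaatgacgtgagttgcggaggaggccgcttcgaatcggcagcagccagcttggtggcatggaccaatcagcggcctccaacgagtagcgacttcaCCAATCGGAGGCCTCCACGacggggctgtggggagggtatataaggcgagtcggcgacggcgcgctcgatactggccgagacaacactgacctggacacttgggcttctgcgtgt
Creld2: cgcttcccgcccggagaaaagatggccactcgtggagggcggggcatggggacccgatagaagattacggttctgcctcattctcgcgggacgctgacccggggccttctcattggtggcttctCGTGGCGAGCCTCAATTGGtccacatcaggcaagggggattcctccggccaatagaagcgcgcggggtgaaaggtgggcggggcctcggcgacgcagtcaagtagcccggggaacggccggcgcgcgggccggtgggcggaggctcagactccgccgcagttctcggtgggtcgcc

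Genes of the amino acid response, which ATF4 drives when translation is slowed through PERK or its relatives, were higher in the KO cells for 14 and lower for 5 of 22 tested members (median 1.05). *Atf5*, a factor of the same family, was at 328, 365, 290.1 and 342 CPM in the KO and 56.8, 63.7, 50.6 and 58.2 CPM in the KI libraries, a log2 fold change of 2.53 (SE 0.10). *Chac1*, the enzyme that breaks down glutathione in the cytosol, was at 14.5, 18.1, 15.4 and 18.1 CPM against 3.28, 3.65, 2.62 and 2.99 CPM, or 2.38. *Cth*, which makes cysteine from cystathionine, rose by 1.63, the asparagine synthetase *Asns* by 1.35 and the amino acid transporter *Slc7a5* by 1.54. In serine synthesis the enzymes went apart, with *Psat1* at 0.87 and *Psph* at 1.10 but *Phgdh*, the first enzyme, at -0.40. *Slc7a3*, *Vldlr*, *Slc38a2* and *Gdf15* were lower as well, at -2.46, -0.65, -0.50 and -0.41, and *Slc7a3* had at most 26 counts in any of the 8 libraries. *Slc7a11*, the cystine importer, was not called (21.4 ± 2.91 CPM in the KO and 18.7 ± 2.13 in the KI cells). The C/EBP-ATF response element, TGATGNAAN, was found on either strand in the promoters of 6 of 19 genes of the list. It was found for 2.82% of tested genes with a promoter and in 3.95% of all promoters. Of the 6 genes, 4 were called higher (*Asns*, *Pycr1*, *Chac1*, *Nupr1*) and 1 lower (*Vldlr*), and *Slc7a11* was not called. In the whole list 14 of 22 tested members (63.6%) were called higher, a share near that of the genes with the element. The promoters of *Chac1* (chr2:119350992-119351291, plus strand) and *Asns* (chr6:7693160-7693459, minus strand) are shown with the element in capitals.

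Chac1: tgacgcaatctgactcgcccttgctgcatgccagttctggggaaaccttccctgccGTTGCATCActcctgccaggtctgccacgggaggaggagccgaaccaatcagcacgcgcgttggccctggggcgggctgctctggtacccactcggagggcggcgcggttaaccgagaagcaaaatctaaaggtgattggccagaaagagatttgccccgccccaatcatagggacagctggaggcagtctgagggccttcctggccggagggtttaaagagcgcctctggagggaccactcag
Asns: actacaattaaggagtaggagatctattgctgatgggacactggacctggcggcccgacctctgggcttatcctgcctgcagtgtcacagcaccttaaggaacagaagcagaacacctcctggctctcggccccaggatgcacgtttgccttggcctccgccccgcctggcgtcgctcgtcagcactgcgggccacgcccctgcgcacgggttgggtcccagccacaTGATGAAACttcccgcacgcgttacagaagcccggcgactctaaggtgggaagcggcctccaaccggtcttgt

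**Figure D2:**
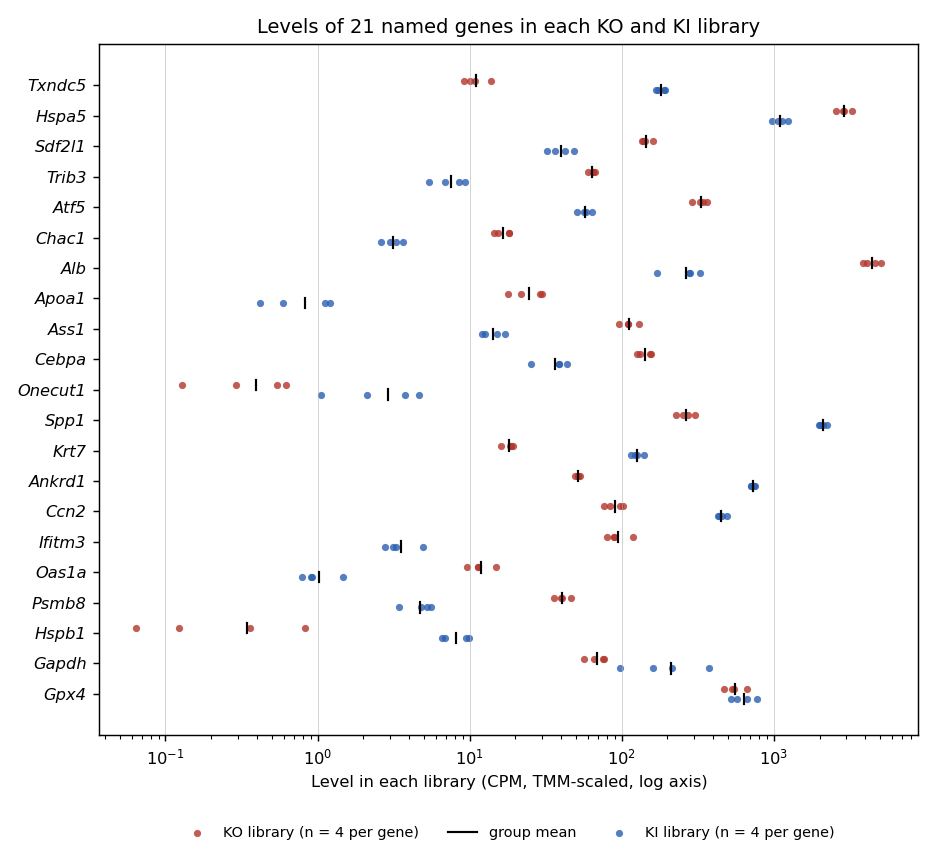
Levels of 21 genes in each library, in CPM on a log axis, with red points for the 4 KO and blue points for the 4 KI libraries of each gene and a black bar at the group mean. The groups are apart for all genes drawn except *Gpx4*, which was not called, and *Gapdh* shows the widest KI spread of the abundant genes.

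Secreted proteins of the hepatocyte were higher in the KO cells for 19 of 35 tested members and lower for 9 (median 1.14). *Alb*, the most abundant plasma protein, was at 5089, 4109, 4609 and 3855 CPM in the KO libraries and 281, 276, 326 and 171 CPM in the KI libraries, a log2 fold change of 4.07 (SE 0.18, edgeR adjusted p = 1.03e-10). *Apoa1*, the main protein of high-density lipoprotein, was at 30.05, 18.0, 29.2 and 21.8 CPM against 0.418, 1.12, 0.592 and 1.2 CPM, or 4.81. *Ahsg*, which encodes fetuin-A, had 160, 146, 165 and 242 counts in the KO but 0 in the KI libraries, at least 53.2-fold higher, and *Ttpa*, the vitamin E transfer protein, 79, 47, 84 and 56 and 0, at least 20.4-fold higher. *Apoc1*, an inhibitor of lipoprotein uptake, was at 28.6 ± 5.25 CPM in the KO and 0.171 ± 0.0698 CPM in the KI cells. The fibrinogen chains *Fga* and *Fgb* rose by 2.04 and 1.94. Against this direction, the alpha-1-antitrypsin genes were lower. *Serpina1a* had 45, 17, 12 and 11 counts in the KO and 419, 419, 489 and 328 in the KI libraries, a log2 fold change of -4.17, and *Serpina1b* -2.81. *Serpina1d* had 2, 0, 0 and 0 counts against 18, 36, 12 and 11. These paralogs are nearly identical, so the split of reads among them is uncertain, and their joint fall cannot tell which of them changed. *Serpina1c*, which was not tested, had 8, 5, 3 and 3 counts in the KO and 0, 66, 70 and 57 in the KI libraries. The retinol carrier *Rbp4* fell by 0.56 and *Apob*, the protein of low-density lipoprotein, fell by 0.53, and *Ttr* fell by 0.44. *Trf* and *F2* were not called, with log2 fold changes of -0.063 and -0.40.

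Of the liver-enriched transcription factors, 11 of 22 tested were called higher and 6 lower (median 0.55). *Cebpa*, a main activator of hepatocyte genes, was at 155, 133, 156 and 126 CPM in the KO and 25.4, 38.7, 38.7 and 43.4 CPM in the KI libraries, or 1.96 (SE 0.14). *Nr1i2*, the xenobiotic receptor PXR, rose by 2.36, *Klf15* by 1.27, *Rxra* by 1.23 and *Hnf4a* by 1.06. The factors *Foxa2* and *Gata4* had smaller differences, of 0.62 and 0.48. *Onecut1*, also called HNF6, was lower with 18, 4, 9 and 25 counts in the KO and 71, 36, 133 and 143 in the KI libraries (-2.68). *Foxa3*, *Ppara* and the bile acid receptor *Nr1h4* were lower, at -0.74, -0.67 and -0.50.

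Among metabolic enzymes of the hepatocyte, 12 of 21 tested were called higher and 2 lower (median 1.02). *Cps1*, the first enzyme of the urea cycle, had 80, 66, 141 and 135 counts in the KO and 0, 0, 0 and 5 in the KI libraries. *Ass1*, the third of the cycle, was at 96.5, 111, 110.3 and 131 CPM against 12.7, 12.0, 17.1 and 15 CPM, or 2.97, whereas *Asl*, the next, was at 51.3 ± 3.61 CPM in the KO and 50.7 ± 1.80 in the KI cells and was not called. *Otc* and *Arg1*, which complete the cycle, did not reach the test, with at most 9 and 3 counts in any of the 8 libraries. *Gnmt*, a methyltransferase that uses up S-adenosylmethionine, rose by 4.00, *Adh1* by 3.11 and the glutamine synthetase *Glul* by 2.39. *Gls2*, the liver glutaminase, fell by 0.94. The median of this list was 1.86 without KI 7 and 0.71 without KI 8. Transcripts that mark mature liver stayed at or near 0 in both lines, among them *Cyp2e1*, *Fgg* and *Plg*, the latter with 0 counts throughout.

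Drug and aldehyde metabolism went the same way for 18 of 33 tested members, against 10 lower (median 0.63). *Aldh3a1*, an aldehyde dehydrogenase, was at 48.4, 40.9, 47.2 and 51.6 CPM in the KO and 0.537, 0.617, 0.169 and 0.163 CPM in the KI libraries, or 6.77. The efflux pump *Abcb1b* rose by 4.13 and the mitochondrial folate enzyme *Aldh1l2* by 3.76. The quinone reductase *Nqo1*, an NRF2 target, had 42, 23, 41 and 24 counts in the KO and 0, 0, 3 and 0 in the KI libraries. *Cyp2d22* fell by 1.76, *Fmo5* fell by 1.00, and *Ahr*, the dioxin receptor, fell by 0.96.

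Biliary and progenitor genes were lower in the KO cells for 11 of 14 tested members and higher for 1 (median -0.90). *Spp1*, which encodes osteopontin, was at 301, 272, 254 and 227 CPM in the KO and 2105, 2255, 1996 and 2025 CPM in the KI libraries, a log2 fold change of -2.99 (SE 0.11). *Krt7*, a keratin of bile duct cells, was at 19.4, 18.8, 18.6 and 16.2 CPM against 126, 140.1, 123 and 115 CPM, or -2.78, and *Krt20* fell by 1.97. The keratins of all liver epithelium, *Krt8* and *Krt18*, were lower, at -0.71 and -0.93, and *Afp*, the fetal counterpart of albumin, fell by 0.87 (-0.70 and not called without KI 5). *Krt19*, the other keratin of bile ducts, was the exception with 0.56, and *Sox9*, their leading factor, was at 36.6 ± 5.11 CPM in the KO and 38.7 ± 5.94 in the KI cells and was not called. *Vtcn1*, a B7-family protein, had 6, 0, 0 and 0 counts in the KO and 37, 13, 109 and 43 in the KI libraries. Epithelial junction genes were split, 10 higher and 9 lower of 24. *Cldn1* fell by 3.01 and *Ocln* fell by 1.39, whereas *St14*, a membrane protease, rose by 4.07 and *Tjp3* by 2.96. *Cdh1*, the epithelial cadherin, was not called (0.15).

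Mesenchymal and contractile genes were lower for 15 and higher for 5 of 24 tested members (median -0.88). *Postn*, the matrix protein periostin, had 3, 0, 0 and 0 counts in the KO and 189, 211, 255 and 138 in the KI libraries, and *Cnn1*, calponin of smooth muscle, 0 in the KO and 98, 105, 138 and 106 in the KI libraries, at least 34.5-fold lower. *Ankrd1*, a target of the Hippo effector YAP, was at 51.5, 51.3, 49.1 and 53.4 CPM in the KO and 742, 755, 708 and 705 CPM in the KI libraries, or -3.82 (SE 0.086, edgeR adjusted p = 3.58e-13). *Ccn1* and *Ccn2*, further YAP targets, were at means of 43.3 and 90.2 CPM in the KO and 260.3 and 452 CPM in the KI cells, with log2 fold changes of -2.58 and -2.33. Fibronectin, *Fn1*, fell by 1.36. The higher members included *Myl9* (2.14), a myosin light chain, *Vim* (0.72) and the transcription factors of epithelial-mesenchymal transition *Zeb2* (1.5) and *Snai2* (0.95), while *Zeb1* was lower (-0.99). *Acta2* and *Tagln*, the usual marks of myofibroblasts, had too few counts to be tested, and *Tagln* had 0 in all 8 libraries.

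Targets and parts of the Wnt and Hippo pathways were lower for 13 and higher for 4 of 24 tested members (median -0.52), the 3 YAP targets above among them. *Wnt7b*, a ligand, had 0, 11, 6 and 5 counts in the KO and 436, 360, 294 and 327 in the KI libraries. The Wnt receptor genes *Fzd1* and *Lgr6* were silent in all 4 KO libraries, with lower bounds of the fold of 15.3 and 12.0. The effectors of Hippo signalling, *Yap1* and *Wwtr1*, were not called, with log2 fold changes of 0.048 and 0.063. Of the DNA-binding partners, *Tead2* fell by 2.64, and *Tead3* and *Tead4* rose by 0.76 and 0.68. *Lgr4* and *Wnt4* rose by 1.48 and 1.24. The letters GGAATG, bound by TEAD factors, were found on either strand for 8 of 17 genes of the list, for 14.6% of tested genes with a promoter and in 14.7% of all promoters. Of these 8, 2 were called higher and 4 lower. In the whole list 13 of 24 tested members (54.2%) were called lower, a share near that of the genes with the letters. The promoter of *Ankrd1* (chr19:36119795-36120094, minus strand) is shown because this gene fell most among the YAP targets, with both matches in capitals.

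Ankrd1: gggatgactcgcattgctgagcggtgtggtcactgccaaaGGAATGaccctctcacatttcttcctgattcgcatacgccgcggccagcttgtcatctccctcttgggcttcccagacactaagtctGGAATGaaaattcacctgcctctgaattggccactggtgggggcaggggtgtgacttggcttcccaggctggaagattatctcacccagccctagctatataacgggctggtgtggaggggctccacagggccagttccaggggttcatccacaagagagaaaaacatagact

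Collagen chains were lower for 10 of 15 tested members and higher for 1 (median -0.70). The basement membrane chains *Col4a1*, *Col4a2*, *Col4a5* and *Col4a6* were lower, at -0.99, -1.08, -1.68 and -2.52. *Col6a1* had 0, 16, 11 and 0 counts in the KO and 112, 143, 201 and 85 in the KI libraries, and *Col7a1*, the anchoring fibril, fell by 3.82. *Col16a1* was the member called higher (0.92), and a second one was called without KO 5 and without KI 6. Laminins and integrins were split, 8 higher and 9 lower of 22. *Lamb1* had 0, 0, 10 and 11 counts against 230, 243, 260 and 171, while its partner chain *Lamc1* rose by 1.19. Of the integrins, *Itga2* fell by 1.42 and *Itgb1*, the shared beta chain, fell by 1.22, and *Itga7* and *Itgb4* rose by 2.09 and 1.66. Of the 10 tested genes of caveolae, 5 were higher and 1 lower. Besides *Cavin3*, *Ehd2* and *Cav1* rose by 0.90 and 0.70, and *Cavin2* fell by 0.45.

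Of 61 tested interferon-stimulated genes 40 were called higher and 6 lower in the KO cells (median 1.07). *Ifitm3*, which blocks the entry of viruses, was at 119, 89.4, 89.0 and 79.5 CPM in the KO and 2.78, 4.91, 3.16 and 3.28 CPM in the KI libraries, a log2 fold change of 4.71 (SE 0.18, edgeR adjusted p = 2.48e-11). *Oas1a*, a sensor of double-stranded RNA, was at 11.4, 11.3, 15 and 9.64 CPM against 0.925, 0.912, 0.789 and 1.46 CPM, or 3.46, and its close paralog *Oas1g* at 4.45, with reads that the counting could split between them. *Usp18*, which limits interferon signalling, and *Isg15*, its substrate, rose by 3.75 and 2.72. Of the signalling chain, *Irf9* (1.37), *Irf7* (2.48) and the receptor chains *Ifnar1* (0.56) and *Ifnar2* (1.17) were higher, whereas *Irf1* was lower (-0.84) and *Stat2* was not called (-0.22). The peptide transporter genes *Tap1* and *Tap2* rose by 2.51 and 1.90, and the class I genes *H2-K1* and *H2-D1* by 0.52 and 0.89. *Iigp1*, *Ifit3* and *Irgm1* went the other way (-3.75, -1.62 and -0.77), and *Ifit1* rose by 2.63.

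The interferon-stimulated response element was searched as TTTC, any 2 bases and TTTC again on both strands. It was found in the promoters of 20 of 48 genes of this list, of 3.79% of tested genes with a promoter, and in 3.44% of all promoters. Of the 20, 10 were called higher and 2 lower in the KO cells. In the whole list 40 of 61 tested members (65.6%) were called higher, so genes with the element were not called higher more often than the list. *Ifitm3* (chr7:141010695-141010994, minus strand) is shown with its matches in capitals.

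Ifitm3: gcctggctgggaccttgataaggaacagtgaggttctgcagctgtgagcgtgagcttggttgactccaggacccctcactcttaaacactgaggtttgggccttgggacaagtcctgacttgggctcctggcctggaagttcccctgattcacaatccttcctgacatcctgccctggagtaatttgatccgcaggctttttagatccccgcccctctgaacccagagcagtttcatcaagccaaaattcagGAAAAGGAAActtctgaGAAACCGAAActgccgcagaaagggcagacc

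Of the proteasome subunits, 17 were higher and 7 lower of 43 tested (median 0.17, 0.10 without KO 5 and 0.11 without KI 7), and 11 were higher without KO 7. The extremes were the immunoproteasome subunits, which interferon induces: *Psmb8* was at 46.2, 35.9, 39.8 and 40.5 CPM in the KO and 3.43, 4.79, 5.55 and 5.23 CPM in the KI libraries (3.08), *Psmb9* rose by 1.91, and *Psmb10*, the other one, fell by 0.65.

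Inflammatory and acute phase genes were split, with 15 higher and 19 lower of 48 tested (median -0.18, and -0.057 without KI 7). Antichymotrypsin-like genes of the serpin A cluster held the 3 lowest values. *Serpina3g* was at 1.74, 0.989, 1.81 and 0.939 CPM in the KO and 50.9, 51.3, 48.8 and 62.9 CPM in the KI libraries, or -5.24, *Serpina3f* at -4.89 and *Serpina3n* at -3.01, and *Serpina3i* had 0, 5, 0 and 0 counts against 382, 362, 479 and 562. Reads of these paralogs may be split by the counting. The receptor *Il1r1* fell by 4.45 and the chemokine *Ccl2* fell by 1.83. *Hp* and *Saa3*, acute phase proteins, rose by 2.06 and 2.05, and *Lcn2* by 0.45. The factor *Stat3*, which drives the acute phase, was not called (-0.18), and *Nfkb1* fell by 0.69.

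Glutathione metabolism, which the study set out to relate to TXNDC5, moved in both directions. Of 49 tested genes of glutathione and the NRF2 response, 19 were higher and 20 lower (median 0.13, and 0.086 without KI 8). *Gstt1*, a theta-class transferase, was at 37.6, 25.5, 28.9 and 22.5 CPM in the KO and 172, 173, 175 and 146 CPM in the KI libraries, or -2.54 (SE 0.14). *Gstk1*, the mitochondrial transferase, fell by 3.71, and *Gpx8*, the glutathione peroxidase of the ER, had 0 counts in the KO and 55, 45, 25 and 26 in the KI libraries, at least 11.7-fold lower. *Ggt1*, the cell-surface enzyme that cleaves glutathione outside the cell, fell by 2.35, *Gpx3* fell by 2.49 and the heme oxygenase *Hmox1* fell by 1.86. In synthesis, *Gclc*, the catalytic subunit of the limiting enzyme, was at -0.35 (not called with library totals, -0.29), and *Gss*, the second enzyme, rose by 1.14. The pi-class gene *Gstp3* rose by 1.66 and *Gstp1* by 0.72, with uncertain splits of reads among the paralogs. *Nfe2l2*, which encodes NRF2, rose by 0.41, *Keap1*, its inhibitor, was not called (0.13), and the NRF2 targets went apart, with *Nqo1* and *Srxn1* (1.12) higher and *Hmox1* lower. *Gpx4*, which reduces lipid peroxides, was at 552 ± 81.7 CPM in the KO and 635 ± 110.2 in the KI cells and was not called, though without KO 5 it was, at -0.31.

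Of the peroxiredoxins and other enzymes that remove peroxide, 9 were higher and 6 lower of 21. *Prdx1*, *Prdx2* and *Prdx5* were lower, at -0.60, -1.35 and -0.96, and *Prdx4* and *Prdx6* rose by 2.31 and 0.47. *Cat*, catalase, and the dismutases *Sod1* and *Sod2* rose by 0.77, 0.62 and 0.68. *Prxl2a* fell by 2.28 and *Prxl2b* rose by 3.24. In lipid peroxidation and iron, 10 were higher and 6 lower of 25 (median 0.13). *Tfrc*, the transferrin receptor, fell by 1.5 and *Slc40a1*, the iron exporter, fell by 1.44, *Acsl4*, which loads polyunsaturated fatty acids, fell by 0.80, and *Scd1*, which makes monounsaturated ones, rose by 1.89. Of the phospholipases A2, 5 were higher and 8 lower of 17, with 3 higher without KO 6 and 3 without KO 8. *Plaat3* was at 0.658, 0.351, 0.419 and 0.297 CPM in the KO and 18.7, 17.7, 17.1 and 19.2 CPM in the KI libraries (-5.23). *Pla2g4a*, the cytosolic enzyme, and *Pla2g6*, the calcium-independent one, were lower, at -1.43 and -1.06. *Pla2g12b*, with 61, 27, 62 and 31 counts in the KO and 0 in the KI libraries, was at least 14-fold higher, and *Pnpla3* rose by 1.95.

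The genes that the study named in the KO cells were read in the same fit. Of the 15 genes 14 were tested, 4 were higher and 8 lower, and *Serpina3m*, the other one, had 0 counts in every KO library, 7, 0, 0 and 0 in the KI and 205, 191 and 97 in the WT libraries. *Prdx6* and *Hspa9* the study took from proteins found with TXNDC5. The other genes it drew from literature and databases, filtered by change between KO and WT libraries and by liver protein abundance, and measured by RT-qPCR. Because that filter used the same KO libraries, their counts are no independent evidence of a direction. *Prdx6* was at 325, 311, 339.6 and 337 CPM in the KO and 242, 233, 244 and 229 CPM in the KI libraries, a log2 fold change of 0.47 (SE 0.076, edgeR adjusted p = 1.06e-04). *Hspa9*, the mitochondrial chaperone mortalin, was at 571, 596, 584 and 592 CPM against 546, 536, 521 and 491 CPM, and though these values did not overlap the gene was not called (0.16, edgeR adjusted p = 0.0920), whereas with library totals (0.22) and with DESeq2 (0.15) it was. The co-chaperone *Dnaja3* and the fusion protein *Mfn2* rose by 0.90 and 0.51. *Prdx5*, *Hsp90aa1*, *Npm1*, *Oplah* and *Rps14* were lower, at -0.96, -1.08, -0.77, -0.90 and -0.48, and *Gstm6* was not called (-0.75), except without KI 8 (-0.95). *Serpina1a*, *Serpina1b*, *Gstt1* and *Gstp3* are given above. Against WT, which is another comparison, the study reported lower *Gstp3* and *Hspa9* mRNA and unchanged *Prdx6* mRNA in the KO cells.

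In the list of mitochondrial genes, 13 of 35 tested chaperones and genes of fusion and fission were higher and 9 lower (median 0.093, 0.047 without KO 8 and 0.055 without KI 8). The largest difference of this list was in *Hspb1*, a cytosolic small heat shock protein kept in it, with 12, 26, 2 and 5 counts in the KO and 230, 336, 334 and 202 in the KI libraries (-4.38). *Hspa1b*, the inducible cytosolic HSP70 and likewise not mitochondrial, rose by 1.80, and *Tomm20*, an import receptor, fell by 0.83. Subunits of oxidative phosphorylation were lower for 30 (39.0%) and higher for 6 (7.79%) of 77, against 27.0% each way over all genes (median -0.19). The number lower was 24 with library totals, 23 with the replicate block and 22 to 38 when a library was left out. The log2 fold changes were small, from -0.96 for *Cox7a2* to 0.51 for *Ndufa8*. Glycolysis genes were lower for 15 and higher for 5 of 31 (median -0.31). *Slc16a3*, the lactate exporter, was at 2.24, 1.18, 2.39 and 2.60 CPM in the KO and 36.1, 38.4, 37.5 and 37.0 CPM in the KI libraries (-4.10). *Gapdh* was at 76.4, 75.4, 65.6 and 56.3 CPM against 162, 97.9, 376 and 213 CPM (-1.63), so that the KI libraries spread over a wide range above the KO values. The low-affinity glucose carrier *Slc2a2* rose by 1.80 and *Slc2a1*, the common one, fell by 0.79, and the hypoxia targets *Car9* and *Ankrd37* were lower, at -1.71 and -1.64. *Hk1*, the first enzyme, and *Ldha*, which makes lactate, were not called (-0.15 and -0.084).

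In lipogenesis and lipid droplets 12 were higher and 8 lower of 27 (median 0.19), with 5 lower without KO 7, without KI 7 and with library totals. *Plin2*, the general coat protein of droplets, fell by 1.48, while *Plin4* and *Plin5* rose by 3.01 and 4.29. *Plin5* was at 13.8, 8.65, 11.2 and 10.1 CPM in the KO and 0.746, 0.323, 0.367 and 0.585 CPM in the KI libraries. The lipogenic factors *Srebf1* and *Mlxipl* rose by 0.95 and 1.74, and of the enzymes *Scd1* and *Dgat2* (1.15) were higher but *Acly* (-0.39) and *Elovl6* (-0.69) lower. In fatty acid uptake and oxidation 14 were higher and 11 lower of 38. *Ehhadh*, of peroxisomal oxidation, rose by 2.25, *Pdk4* by 1.64 and *Fabp1* by 1.36, and *Acot1* and *Acot2* were lower, at -1.93 and -1.11. Cholesterol genes were higher for 4 (14.3%) and lower for 10 (35.7%) of 28, against 27.0% each way over all genes (median -0.14). The number lower was 6 in place of 10 without KO 7 and with replicate numbers as a block. *Abca1*, which exports cholesterol to *Apoa1* protein, had the largest difference of the list, at 28.0, 30.4, 32.0 and 41.2 CPM in the KO and 2.33, 1.44, 1.75 and 2.37 CPM in the KI libraries (4.03).

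Of genes of DNA replication and mitosis 27 were higher (39.7%, against 27.0% of all genes) and 11 lower (16.2%) of 68. The median was 0.083, and with single libraries left out it lay between 0.019 without KI 8 and 0.15 without KO 7. None of these shifts exceeded 1 SD between the libraries of a group. *Mki67*, *Plk1*, *Cdc20* and *Aurka*, of mitosis, rose by 1.2, 1.22, 1.21 and 1.11, *E2f2* by 2.60 and the inhibitor *Cdkn1c* by 3.66, while *Orc6* and *Cdk4* were lower, at -0.85 and -0.57. *Pcna*, of replication, was not called (-0.10). Of the p53 targets 13 were higher and 6 lower of 30. *Cdkn1a* and *Mdm2*, the usual readouts, rose by 0.71 and 0.62, *Fas* and *Bbc3* by 1.59 and 1.46, and *Trp53* itself was not called (-0.089). *Cdkn2a*, kept in this list though it acts upstream of p53, was at 1.38, 2.52, 0.999 and 1.61 CPM in the KO and 63.2, 73.2, 60.9 and 59.0 CPM in the KI libraries (-5.25). Cytosolic ribosomal proteins were higher for 14 (17.3%) and lower for 23 (28.4%) of 81, against 27.0% each way over all genes. Their median was -0.087 and ran from -0.16 without KO 5 to -0.033 without KI 6, within 1 SD between the libraries of a group. The largest rise was 0.59 in *Rplp2*, and many of these genes have processed pseudogenes that share reads. Nucleolar ribosome biogenesis had 10 higher (22.2%) and 11 lower (24.4%) of 45, near the shares over all genes, with *Myc* at -0.51, *Pes1* at -0.80 and *Rrp12* at 0.79.

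Of TGF-beta and BMP signalling 9 were higher and 15 lower of 35 (median -0.15). *Tgfbr3*, the co-receptor betaglycan, had 0 counts in the KO and 120, 51, 133 and 75 in the KI libraries, at least 29.1-fold lower. The activin subunit *Inhba* and its antagonist *Fst* were lower, at -2.10 and -1.96. Among the BMP targets *Id1* and *Id3* rose by 1.36 and 2.07 but *Id2* fell by 1.42. Of receptor tyrosine kinases and ligands 11 were higher and 14 lower of 32. *Egfr* and *Igf1r* were lower, at -1.26 and -0.97, *Erbb3*, *Fgfr2* and *Met* rose by 2.75, 1.19 and 0.92, and the feedback inhibitors *Spry4*, *Spry2* and *Dusp6* were lower, at -1.94, -0.92 and -0.67. Among imprinted genes 5 were higher and 2 lower of 10. *Peg3*, a zinc finger gene read from the paternal copy, was at 42.5, 49.8, 51.4 and 54.6 CPM in the KO and 1243, 1043, 1584 and 999.8 CPM in the KI libraries (-4.62, SE 0.15), and its neighbour *Usp29* was lower with it (-4.30). *Phlda2* and *Cdkn1c*, which lie together on chromosome 7, rose by 1.5 and 3.66. Of DNA methylation and Polycomb genes 6 were higher (18.75%) and 9 lower (28.1%) of 32, against 27.0% each way over all genes. *Tet1* had 5, 7, 0 and 0 counts in the KO and 41, 24, 79 and 34 in the KI libraries, *Dnmt3a* fell by 0.88 and *Uhrf1* rose by 0.71.

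The lists are set side by side in the plot of shares called, in which a list that follows the bulk of the genes reaches both dotted lines. Interferon-stimulated genes, ER chaperones, disulfide isomerases and the amino acid response exceed the line on the KO side and stay under it on the other. Biliary, collagen, mesenchymal and oxidative phosphorylation genes show the reverse. For oxidative phosphorylation the number lower depended on the setting, with 22 at the lowest in place of 30. No list was tested as a set. The medians moved by at most 0.073 with library totals in place of TMM.

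**Figure D3:**
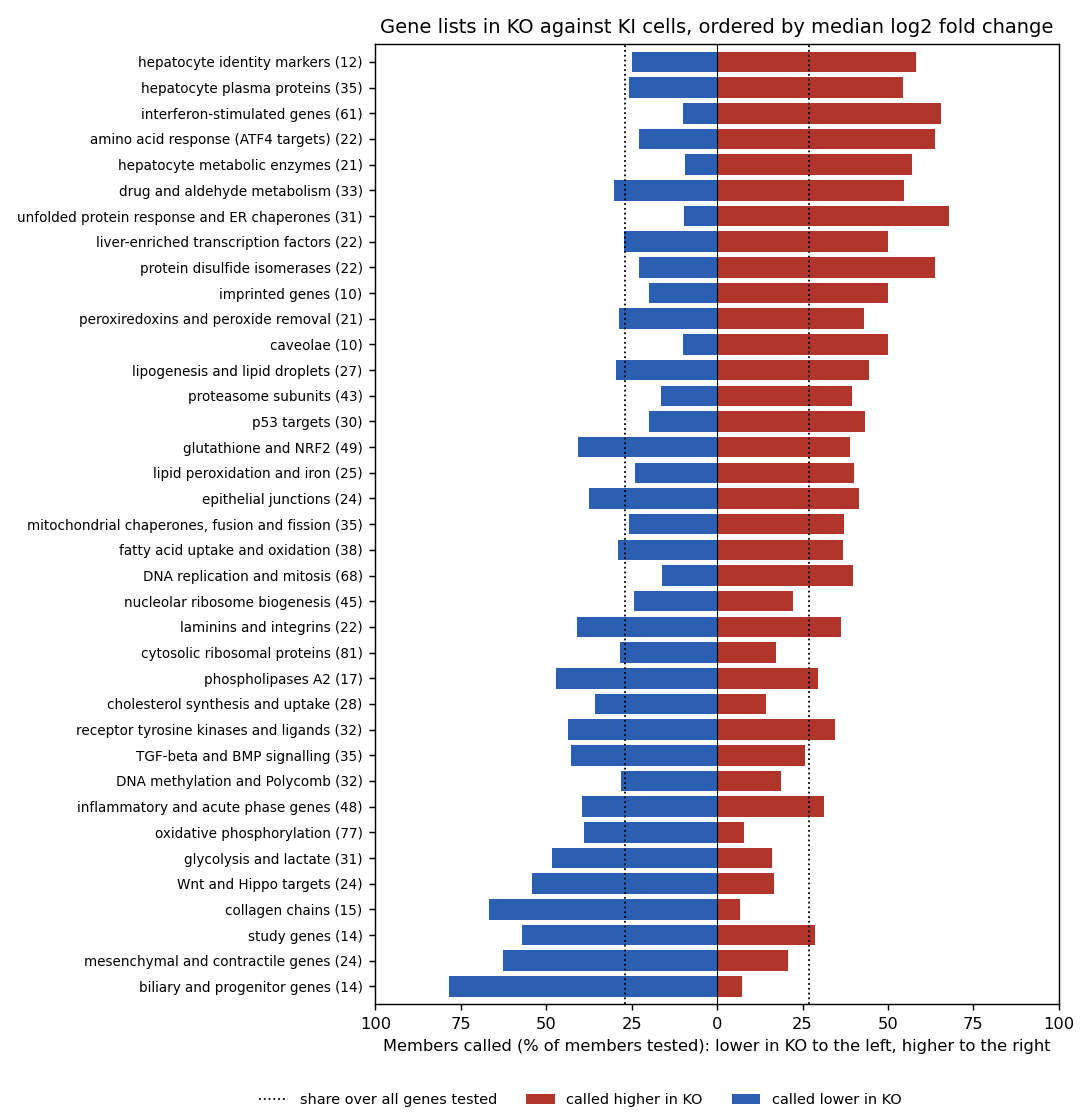
Share of tested members of each gene list called higher (red, to the right) and lower (blue, to the left) in the KO cells, for the 37 lists with at least 10 tested members, whose number stands in parentheses, ordered by median log2 fold change. The dotted lines mark the shares over all 13269 tested genes, 27.0% on each side.

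The WT libraries place these differences beside the parental cells. This is a description on a TMM scale over all 11 libraries, in which KO and KI means are set against the same 3 WT libraries. Unannotated entries took 18.8% to 25.3% of the WT counts, against 11.9% to 13.4% in the KO and 9.65% to 16.4% in the KI libraries. No other scaling was tried for the WT levels, so the positions and WT comparisons below may depend on this choice. The WT mean was nearer to the KI than to the KO mean for 64.8% of the 7171 called genes and for 59.7% of all tested genes. Among called genes with an absolute log2 fold change over 3 it was nearer to KI for 70.1%. Of all called genes, 23.8% had WT between the edited lines and nearer KI, 17.0% between and nearer KO, 41% beyond KI and 18.2% beyond KO. Named genes fell into each of these classes. *Alb* had means of 4104 CPM in the KO, 517 in the WT and 245 in the KI cells, and *Ifitm3* 87.5, 7.22 and 3.29, so that for both the KO cells stood apart. *Hspa5* had 2687, 1754 and 1029, with WT between. *Ankrd1* had 47.7, 186 and 678, and *Ccn2* 83.7, 169 and 422, so that KO was below and KI above WT. *Atf5* had 308, 28.5 and 53.5, both edited lines above WT, and *Gstt1* 26.6, 294 and 155, both below. No test was made on these positions.

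**Figure D4:**
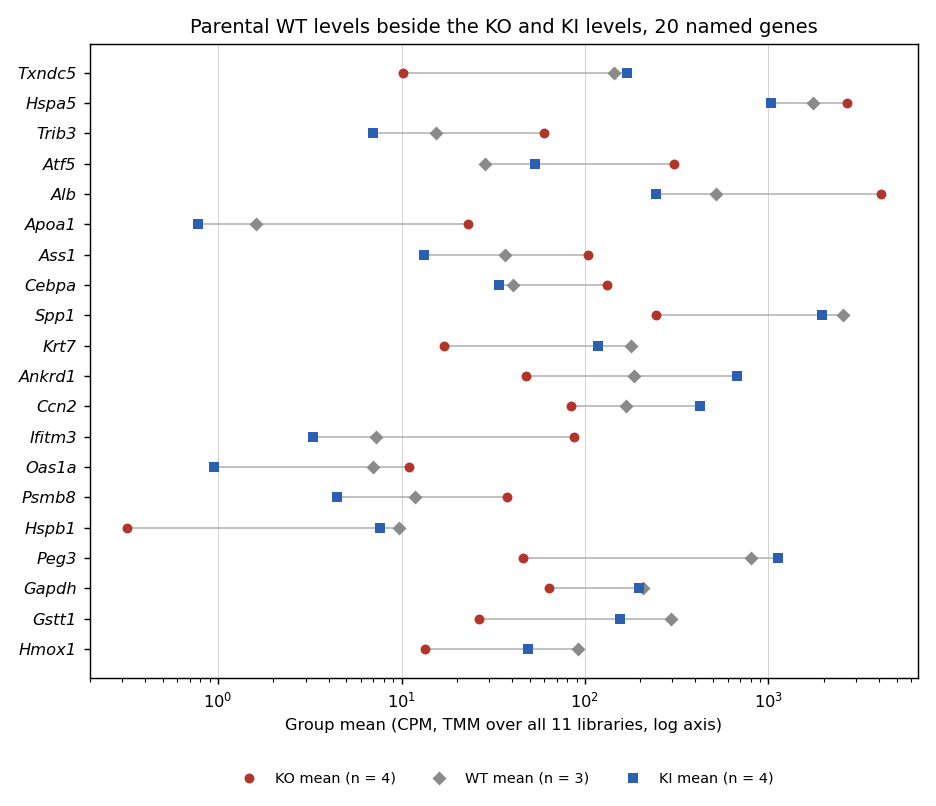
Group means of 20 genes in CPM on a log axis, scaled by TMM over all 11 libraries, with red circles for KO (n = 4), grey diamonds for WT (n = 3) and blue squares for KI (n = 4). WT lies near KI for *Txndc5*, *Cebpa* and *Gapdh*, between the edited lines for *Hspa5*, *Ankrd1* and *Oas1a*, and outside them for *Atf5*, *Spp1* and *Hmox1*.

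On several chromosomes the called genes differed mostly in one direction. Of the 12220 tested annotated genes 11951 (97.8%) were placed by name, with the GENCODE annotation of GRCm38. On chromosome 16, 239 of 374 genes (63.9%) were called higher in the KO cells and 35 lower, with a median log2 fold change of 0.50. On chromosome 7, 548 of 929 (59.0%) were higher and 68 lower (median 0.43), and on chromosome 2, 533 of 962 (55.4%) were higher and 82 lower (median 0.39). On chromosome 12, 34 of 398 were higher and 219 (55.0%) lower, with a median of -0.42, and on chromosome 18, 27 of 313 were higher and 161 (51.4%) lower (median -0.37). Chromosomes 8, 9 and 11 had medians of -0.27, -0.23 and -0.27. Chromosome 1 stood near the bulk with a median of 0.044. Leaving out any library kept the median of chromosome 16 between 0.47 and 0.51 and that of chromosome 12 between -0.42 and -0.40. Set against WT on the common scale, the medians of chromosome 16 were 0.50 for KO minus WT and -0.037 for KI minus WT, those of chromosome 2 were 0.28 and -0.086, and those of chromosome 7 were 0.55 and 0.12, while chromosome 14 was below WT in both edited lines (-0.33 and -0.37). The number of chromosome copies was not measured, and its part in these medians was not tested. *Peg3*, *Usp29*, *Ifitm3*, *Cavin3* and *Apoc1* lie on chromosome 7, *Serpina1a* and *Serpina3g* on chromosome 12, and *Hspa5*, *Chac1* and *Trib3* on chromosome 2. *Peg3* and *Usp29* were lower in the KO cells, against the direction of chromosome 7, and the others had the sign of their chromosome's median.

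**Figure D5:**
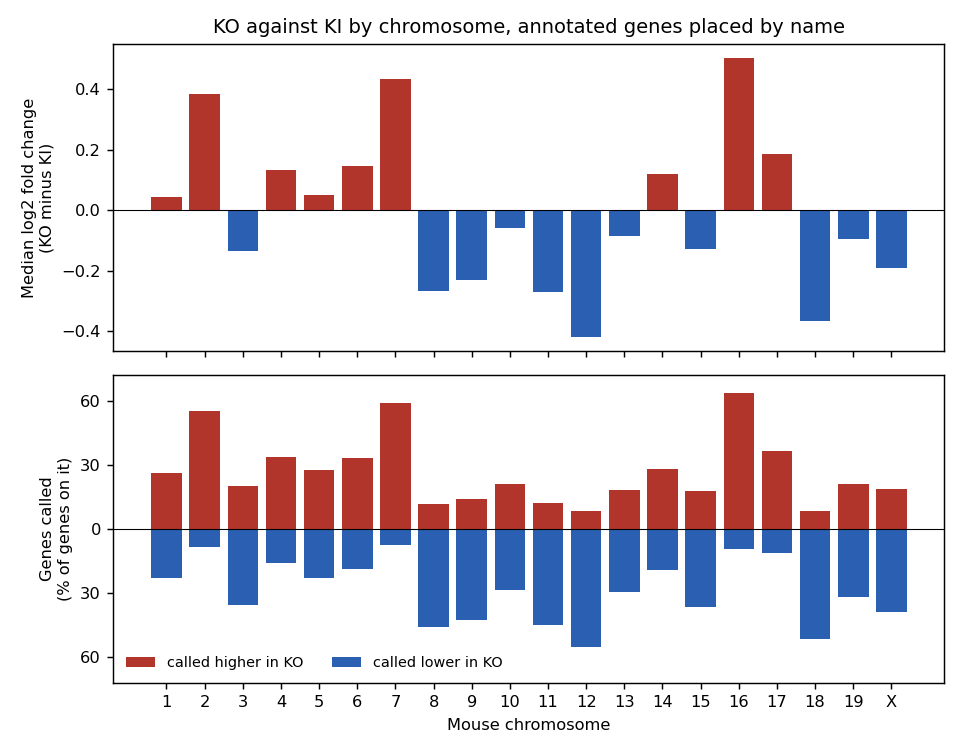
Median log2 fold change, KO minus KI, of the tested annotated genes on each mouse chromosome (upper panel) and the share of genes called higher (red, upward) and lower (blue, downward) in the KO cells (lower panel). Chromosomes 2, 7 and 16 stand above 0 and chromosomes 12 and 18 lowest.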

How the data were processed

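RNAseq was read from a table of whole-number counts per gene entry, deposited by the authors, with 1 column per library. The submitters' processing notes name HISAT2, TopHat2, Bowtie2 and StringTie without versions, and the genome build, annotation and strand setting are not given in the sources used here. Of 26472 lines 10 without a usable entry were left out, and entries of the same gene name were summed to 24849 genes, 2960 of them newly assembled. The FPKM columns, whose decimal points are lost, and the authors' own fold changes and p-values were not used. KO and KI groups follow the labels. Counts were filtered with filterByExpr, scaled by TMM and tested with edgeR 4.0.16 (R 4.3.3; robust quasi-likelihood test, prior count 2, no covariate, 2-sided), with Benjamini-Hochberg adjustment over all 13269 genes and a threshold of 0.05. The scripts were tested on simulated data. DESeq2 1.42.0, limma 3.58.1, other scalings and filters, a replicate block and leaving out each library were alternatives. Named genes are *Txndc5*, the genes the study named, the 15 largest rises and falls among called annotated genes with a mean log2 CPM of at least 2 and no overlap, the 3 highest and lowest of each list, and members whose role a paragraph is about. A few genes that this rule would name are not reported here. The members and lists were chosen with earlier results of these data known. Promoters came from RefSeq tables, exon 5 and chromosomes from GENCODE on GRCm38. Total counts of 30380360 to 38422243 per library set the precision.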

Additional observations from a re-analysis of the deposited data

Results flagged for a closer look

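A library was singled out where the gap between the highest or the lowest of the 4 libraries of a group and its neighbour, divided by the range of the group, exceeded Dixon's 95% critical value for 4 values. Of 608 groups of 4, made of the tested genes named here in the KO and in the KI libraries, 44 did so, and chance gives about 1 in 20, or 30.4. In 18 of them the ratio was 1.0 because a single library held between 2 and 8 counts and the other libraries of the group none. In the KO group these were *Evl*, *Postn*, *Serpina1d* and *Vtcn1* in KO 5, *Flt1*, *Serpina3i* and *Slc7a3* in KO 6 and *Gnao1*, *Khdrbs3* and *Podxl* in KO 8. In the KI group these were *Emp2* and *Erbb3* in KI 6, *Nqo1* in KI 7 and *Atp9a*, *Cavin3*, *Cps1*, *Crtap* and *Zbtb7c* in KI 8. 

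In the remaining groups the gene was measured in every library or nearly so, and the level of the library set apart is given with its ratio. KO 7 was lowest of its group for *Cdkn1a* (179 CPM against 193 to 194, ratio 0.956) and *Prxl2b* (0.870 CPM against 2.10 to 2.33, ratio 0.843). KO 7 was highest of its group for *Fmo5* (2.35 CPM against 1.21 to 1.33, ratio 0.893). KI 6 was highest of its group for *Col7a1* (14 CPM against 12.0 to 12.1, ratio 0.924) and *Foxa3* (16.4 CPM against 10.3 to 10.4, ratio 0.991). KO 8 was highest of its group for *Ddit3* (26.5 CPM against 21.7 to 22.4, ratio 0.849). KI 5 was highest of its group for *Evl* (26.8 CPM against 22.4 to 23.1, ratio 0.835). KI 5 was lowest of its group for *Fabp1* (0.328 CPM against 0.529 to 0.552, ratio 0.896) and *Tead2* (51.5 CPM against 56.5 to 57.5, ratio 0.835). KI 8 was lowest of its group for *Fhl1* (0 CPM against 0.323 to 0.358, ratio 0.903), *Gclc* (769.5 CPM against 1050.0 to 1099, ratio 0.854), *Gstt1* (146 CPM against 172 to 175, ratio 0.889) and *Krt19* (604 CPM against 854 to 881, ratio 0.901). KI 8 was lowest of its group for *Pdia3* (644 CPM against 729 to 746, ratio 0.833) and *Prdx2* (264 CPM against 419 to 440.1, ratio 0.879). KI 8 was highest of its group for *Mctp1* (29.9 CPM against 18.1 to 19.6, ratio 0.874) and *P4hb* (886 CPM against 835 to 843, ratio 0.84). KI 7 was lowest of its group for *Fzd1* (1.13 CPM against 1.58 to 1.62, ratio 0.928). KI 7 was highest of its group for *Gnmt* (1.10 CPM against 0.794 to 0.845, ratio 0.833), *Oas1g* (0.367 CPM against 0.118 to 0.149, ratio 0.873) and *Stat3* (73.7 CPM against 55.0 to 56.5, ratio 0.917). KO 5 was lowest of its group for *Hmox1* (13.4 CPM against 14.7 to 14.8, ratio 0.923), *Scd1* (621 CPM against 721 to 739.8, ratio 0.841), *Syvn1* (56.6 CPM against 69.3 to 71.8, ratio 0.834) and *Yap1* (88.6 CPM against 102 to 104, ratio 0.895). KO 5 was highest of its group for *S100g* (13.3 CPM against 8.28 to 8.80, ratio 0.896).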

How the results depend on the processing

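Most results kept their direction and their call. The count of 7171 called genes lay between 6453 and 7602 under the other scalings, filters, tests and treatments of table entries, and between 6515 and 7230 when a library was left out. *Txndc5* stayed between -4.16 and -3.96 when a library was left out. The test that differed was glmTreat, which asks whether the absolute log2 fold change exceeds 1: it called 1407 genes, 594 higher and 813 lower, by its construction fewer than the 2280 that passed both limits separately. Scaled by library totals, 3937 genes were called higher in place of 3582. The tally by gene leaves out glmTreat. In it, for the 304 tested genes named here, 5400 of 5453 gene-by-setting comparisons kept direction and call. The call was lost in 39, in 8 genes (*P4hb*, *Derl2*, *Ern1*, *Txndc12*, *Fkbp14*, *Ero1a*, *Afp* and *Gclc*), and gained in 8, in 5 genes. The cause was not tested. In 4 genes that were not called the sign turned near 0 when a library was left out. Over the 8 libraries *Asl* ran from -0.0098 to 0.066, *Atf6* from -0.20 to 0.013, *Sox9* from -0.15 to 0.022 and *Yap1* from -0.011 to 0.091. Of 390 list-by-setting medians 49 moved by more than 1 SD between the libraries of a group. With the replicate block, in which KO and KI libraries of the same number were paired, 6453 genes were called, 3263 higher and 3190 lower, and 6419 of the 7171 were called there too. The labels do not say whether the numbers pair the libraries. The correlations of same-numbered deviations from the group means were -0.0298, 0.00189, 0.0284 and -0.116, and no library correlated best with its own number. With 4 libraries per group such values cannot settle whether libraries shared a culture or a day. With total counts of at least 30380360, counting error limits the genes near the floor of 3 counts.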

Other observations

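On 7 of the 20 chromosomes the direction held along the whole chromosome with TMM scaling. In running medians of the log2 fold change over 41 neighbouring tested genes, all 922 windows of chromosome 2, all 889 of chromosome 7 and all 334 of chromosome 16 were above 0. Their lowest windows had medians of 0.12, 0.15 and 0.35. None of the 613 windows of chromosome 8, the 963 of chromosome 11, the 358 of chromosome 12 and the 273 of chromosome 18 was above 0, and their highest windows had medians of -0.076, -0.011, -0.068 and -0.18. On chromosome 1, 449 of 648 windows were above 0, with medians between -0.29 and 0.27. Neighbouring windows share genes, so these are descriptions with no test. Scaled by library totals, the whole-chromosome medians kept their sign on these chromosomes, at 0.45, 0.50 and 0.56 for 2, 7 and 16 and at -0.21, -0.21, -0.36 and -0.30 for 8, 11, 12 and 18. The windows were not recomputed with library totals, which moved the median over all tested genes from 0.00075 to 0.063. The highest window of chromosome 11 (-0.011) lies closer to 0 than that shift.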
